A study of Mus musculus with 8 samples.

Results

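The genes described here are 10 genes of ovarian steroid synthesis and hormone reception, taken by name from a table of 23107 genes. They are Star, Cyp11a1, Hsd3b1, Cyp17a1, Cyp19a1 and Hsd17b1, which encode the steps from cholesterol to estradiol, the gonadotropin receptor genes Fshr and Lhcgr, the nuclear receptor gene Nr5a1 and the estrogen receptor gene Esr2. All 10 were found in the table, and 8 held enough counts to be tested. Cyp17a1 and Lhcgr did not. The libraries came from ovarian cortex of mice at postnatal day 8. There were 4 DCP1A RIP libraries, of RNA recovered by RNA immunoprecipitation with an antibody against the decapping co-activator DCP1A, and 4 input libraries, of RNA not selected by the antibody. The labels name no strain, genotype or treatment, and background binding to a control antibody was not analysed here. They also do not say whether libraries of a group came from different animals, so the p-values below reflect the spread among these libraries, which could be technical.

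DCP1A is a component of processing bodies, cytoplasmic granules in which mRNAs are held or decapped, and the study asked which RNAs it contacts in primary oocytes. Steroid synthesis takes place outside the oocyte. In the growing follicle, theca cells respond to luteinizing hormone through LHCGR and make androgens from cholesterol, and granulosa cells respond to follicle-stimulating hormone through FSHR and turn androgens into estrogens with aromatase. NR5A1, also called steroidogenic factor 1, is a transcription factor of many genes of this pathway. The ovarian cortex of the juvenile mouse is rich in primordial and primary follicles, in which this machinery is mostly not yet in use. In tissue RNA of this kind, fewer cells of a type and less RNA per cell cannot be told apart.

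RIP libraries held 16325387 to 21269891 counts and input libraries 13098153 to 25757618. Between 14908 and 16834 genes had counts in RIP libraries, against 14193 to 15763 in input libraries. Levels below are CPM (counts scaled to a common library size by TMM factors), and 3 counts, taken as the floor of detection for counting error only, correspond to 0.102 to 0.255 CPM in these libraries. All 10 granulosa cell markers listed had counts in every library, as did 9 of 10 oocyte markers, the exception being Oosp1 at 0 counts in input 1. The granulosa cell gene Foxl2 was at 451 to 727 CPM in RIP and 408 to 747 CPM in input, and the oocyte gene Gdf9 at 119 to 267 and 111 to 221 CPM. Of the theca and interstitial cell markers, Ptch1, the hedgehog receptor, was at 201 to 237 CPM in RIP and 135 to 265 CPM in input. Insl3, a hormone of differentiated theca cells, was at 0 counts in RIP 1 and in 3 of 4 input libraries, and reached at most 1.22 CPM in RIP and 3.11 CPM in input. The 5 markers of adrenal cortex summed to at most 0.813 CPM in RIP and 0.920 CPM in input.

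Among the 8 tested genes, none was called as different between RIP and input. With the quasi-likelihood test of edgeR and p-values adjusted over 14667 genes (Benjamini-Hochberg), 0 of the 8 tested genes passed the threshold of 0.05, against 0.0409% of all genes tested. At an unadjusted p under 0.05 the count was also 0 of 8, against 7.43% of all genes, and DESeq2 and limma voom called 0 of 8 as well, against 0.382% and 0.136% of all genes. For all 8 the RIP and input libraries overlapped, while 5.29% of all genes tested had groups that did not overlap. A count of 0 among 8 genes is not set apart from shares as low as these. Fitted log2 fold changes of RIP over input were above 0 for 7 of the 8 genes and had a median of 0.33, beside 48.3% above 0 and a median of -0.02 over all genes tested. The members that passed the filter are not all members, and these figures only describe them. The highest changes, those of Cyp19a1 (2.76) and Cyp11a1 (1.72), belong to genes that passed the filter mostly through RIP 2 to 4. Neither gene was tested when RIP 2 alone or RIP 3 alone was left out, or without both libraries 3 or both libraries 4.

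**Figure D1:**
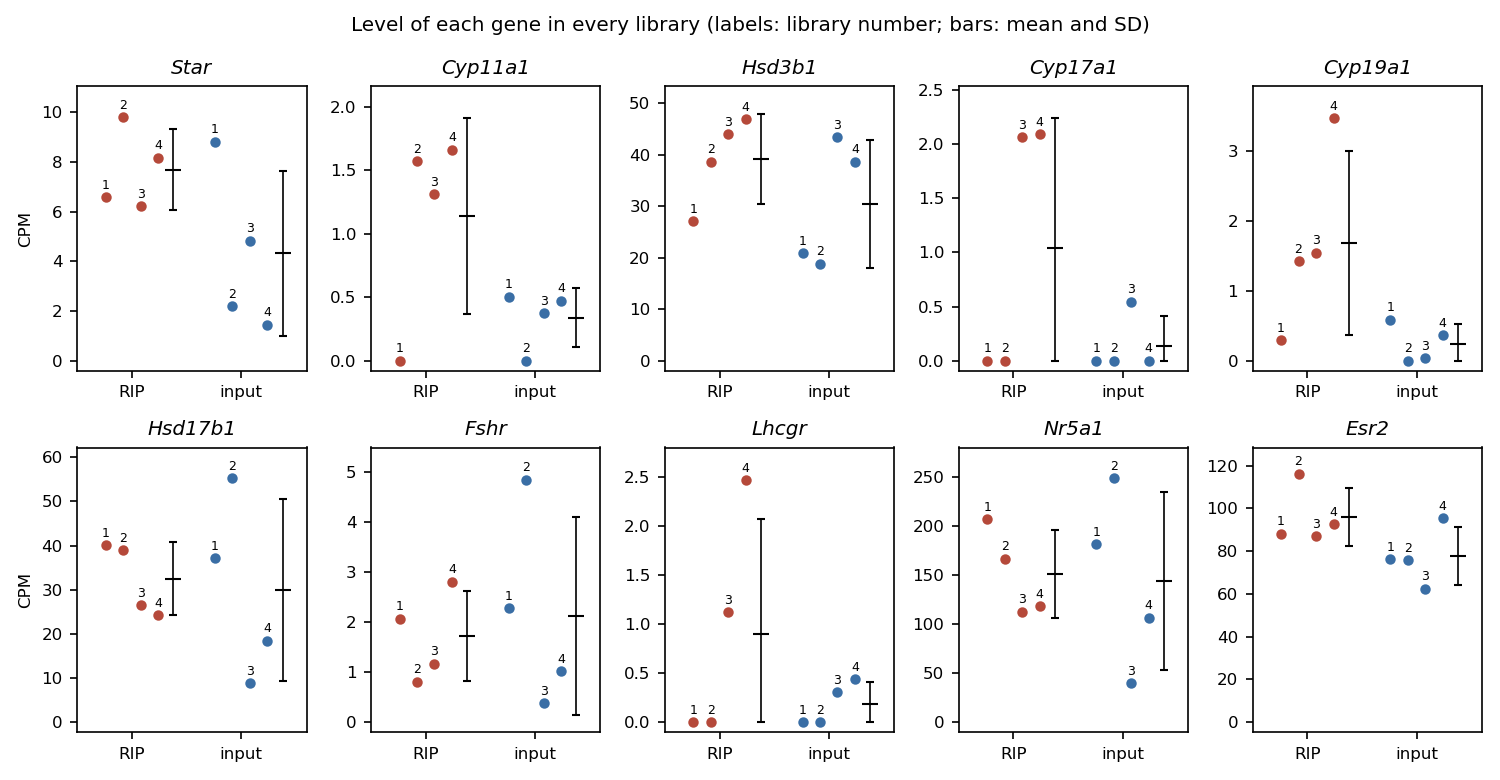
Level in CPM of each of the 10 genes in 4 RIP and 4 input libraries, each point 1 library with its number, beside the mean with its SD (whiskers end at 0 where the SD exceeds the mean). The groups overlap for every gene, and Cyp11a1, Cyp17a1, Cyp19a1 and Lhcgr have libraries at 0.

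Star and Cyp11a1 encode the first steps of the pathway. Star lies on chromosome 8 of mm10 (25808474 to 25815982). STAR delivers cholesterol to the inner mitochondrial membrane, and its mRNA was at 6.58, 9.81, 6.23 and 8.18 CPM in RIP 1 to 4, against 8.82, 2.21, 4.84 and 1.46 CPM in input 1 to 4. The RIP libraries lay close together, and input 1 lay above 3 of them. Star averaged 7.70 ± 1.64 CPM in RIP and 4.33 ± 3.33 CPM in input (SD, n = 4 each), with a log2 fold change of 0.83 ± 0.65 (SE, edgeR adjusted p = 0.797). The 95% interval ran from 0.687-fold to 4.62-fold, so only larger changes than these lie outside it. Without input 1 the log2 fold change was 1.44.

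CYP11A1 cleaves the side chain of cholesterol to give pregnenolone. Its gene (chromosome 9, 57998024 to 58027031), which spans the pseudogene Gm17322, had 0, 33, 28 and 35 counts in RIP 1 to 4, against 6, 0, 11 and 13 counts in input 1 to 4. RIP 2 to 4 stood above every input library, and RIP 1 stood with input 2 at 0. Cyp11a1 was at 1.14 ± 0.77 CPM in RIP and 0.338 ± 0.232 CPM in input (SD, n = 4 each), with a log2 fold change of 1.72 ± 1.54 (SE, edgeR adjusted p = 0.820). The summed counts were 96 in RIP and 30 in input, a ratio of 3.35 after scaling, with an exact interval of 2.20 to 5.23 that covers counting error only. The interval of the fit, which includes the spread between libraries, ran from 0.340-fold to 31.9-fold.

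Hsd3b1 (chromosome 3, 98842356 to 98859794) encodes the dehydrogenase that turns pregnenolone into progesterone and was measured well above the floor in every library. It was at 27.1, 38.6, 44.0 and 46.9 CPM in RIP 1 to 4, against 20.9, 18.9, 43.4 and 38.6 CPM in input 1 to 4. Input 1 and input 2 lay below all other libraries. The means were 39.1 ± 8.7 CPM in RIP and 30.4 ± 12.4 CPM in input (SD, n = 4 each), and the log2 fold change was 0.36 ± 0.34 (SE, edgeR adjusted p = 0.832), with an interval from 0.780-fold to 2.11-fold. Related genes lie in the table beside it, and how reads were divided between near-identical copies is not known, which leaves the level of Hsd3b1 uncertain to that extent. Hsd3b2 had at most 5 counts and Hsd3b3 at most 8 counts in any library. Hsd3b6 was at 1.48 to 5.09 CPM in RIP, against 0 to 6.74 CPM in input.

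The androgen step rested on few reads. Cyp17a1 (chromosome 19, 46667165 to 46673000), whose product makes androgens in theca cells, had 0, 0, 44 and 44 counts in RIP 1 to 4, against 0, 0, 16 and 0 counts in input 1 to 4. Counts were confined to RIP 3, RIP 4 and input 3. In CPM these were 2.06 and 2.09 in RIP and 0.545 in input, and the gene did not pass the filter on low counts. Without the filter the log2 fold change was 2.81 ± 2.23 (SE, edgeR adjusted p = 0.688). The lncRNA gene Gm41857 overlaps Cyp17a1 and has no row of its own in the count table, so reads from the overlap cannot be told apart.

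Cyp19a1 (chromosome 9, 54165937 to 54268164) encodes aromatase, which turns androgens into estrogens in granulosa cells. The lncRNA gene Gm51676 overlaps it and has no row in the count table, so reads from the overlap cannot be told apart. It had 4, 30, 33 and 73 counts in RIP 1 to 4, against 7, 0, 1 and 10 counts in input 1 to 4. RIP 2 to 4 lay above every input library, and RIP 1 lay below input 1. Cyp19a1 was at 1.69 ± 1.32 CPM in RIP and 0.247 ± 0.281 CPM in input (SD, n = 4 each). Its log2 fold change of 2.76 ± 1.50 was the highest fitted among the 8 tested members (SE, edgeR adjusted p = 0.712), with an interval from 0.745-fold to 61.7-fold. It ranked at 1740 of 14667 genes by p. The summed counts of 140 in RIP and 18 in input gave a ratio of 8.14, with a counting interval of 4.96 to 14.1. Cyp19a1 fell below the filter without RIP 2 alone, without RIP 3 alone, and without both libraries 3 or both libraries 4. In the 8 fits with libraries left out that still tested it, the log2 fold change was between 2.14 and 3.88, with 3.53 without input 1 and 2.14 without RIP 4, and the lowest adjusted p in any setting was 0.514.

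Hsd17b1 (chromosome 11, 101077968 to 101081188) encodes the granulosa cell enzyme that turns estrone into estradiol. It was at 40.1, 39.0, 26.5 and 24.3 CPM in RIP 1 to 4, against 37.1, 55.3, 8.82 and 18.5 CPM in input 1 to 4. Input 2 and input 3 were the highest and the lowest of the 8 libraries, and all RIP libraries lay between them. The means of 32.5 ± 8.2 CPM in RIP and 29.9 ± 20.6 CPM in input (SD, n = 4 each) gave a log2 fold change of 0.12 ± 0.45 (SE, edgeR adjusted p = 0.960). The interval ran from 0.560-fold to 2.11-fold, and the log2 fold change was -0.18 without input 3 and -0.05 without input 4.

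The gonadotropin receptor genes had few counts, 11 to 59 per library for Fshr and 0 to 52 for Lhcgr. Fshr, the receptor gene of granulosa cells (chromosome 17, 88984952 to 89200675), was at 2.07, 0.809, 1.17 and 2.80 CPM in RIP 1 to 4, against 2.27, 4.84, 0.375 and 1.02 CPM in input 1 to 4. As for Hsd17b1, input 2 was the highest and input 3 the lowest. Fshr was at 1.71 ± 0.90 CPM in RIP and 2.13 ± 1.97 CPM in input (SD, n = 4 each), with a log2 fold change of -0.30 ± 1.12 (SE, edgeR adjusted p = 0.960). Without input 2 it was 0.50, and the interval from 0.155-fold to 4.25-fold leaves its direction unset. Lhcgr, the receptor gene of theca cells and later of preovulatory granulosa cells (chromosome 17, 88716384 to 88792059), had 0, 0, 24 and 52 counts in RIP 1 to 4, against 0, 0, 9 and 12 counts in input 1 to 4. It had counts only in the libraries numbered 3 and 4. Lhcgr did not pass the filter, and without the filter its log2 fold change was 2.20 ± 2.12 (SE, edgeR adjusted p = 0.758).

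Nr5a1 (chromosome 2, 38692656 to 38714542) encodes the steroidogenic factor of granulosa and other somatic cells. It was at 207, 167, 113 and 118 CPM in RIP 1 to 4, against 182, 249, 39.8 and 107 CPM in input 1 to 4. Input 2 was again the highest library and input 3 the lowest, with the RIP libraries between them. Nr5a1 averaged 151 ± 44 CPM in RIP and 144 ± 91 CPM in input (SD, n = 4 each), and the log2 fold change was 0.07 ± 0.41 (SE, edgeR adjusted p = 0.978). A difference above 1.92-fold or below 0.573-fold lies outside the interval. The direction was not fixed, since the log2 fold change was -0.24 without input 3, -0.05 without input 4 and -0.12 without RIP 1.

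Esr2 (chromosome 12, 76120419 to 76177259) encodes estrogen receptor beta, the main estrogen receptor of granulosa cells, and had the narrowest interval among the tested members. It was at 88.1, 116, 87.1 and 92.7 CPM in RIP 1 to 4, against 76.4, 75.9, 62.4 and 95.6 CPM in input 1 to 4. Only input 4 lay within the range of the RIP libraries. The means were 96.0 ± 13.7 CPM in RIP and 77.6 ± 13.6 CPM in input (SD, n = 4 each), with a log2 fold change of 0.31 ± 0.24 (SE, edgeR adjusted p = 0.796). The interval from 0.873-fold to 1.76-fold leaves out a doubling. The pseudogene Gm7862 lies within the span of Esr2 and has no row in the count table.

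**Figure D2:**
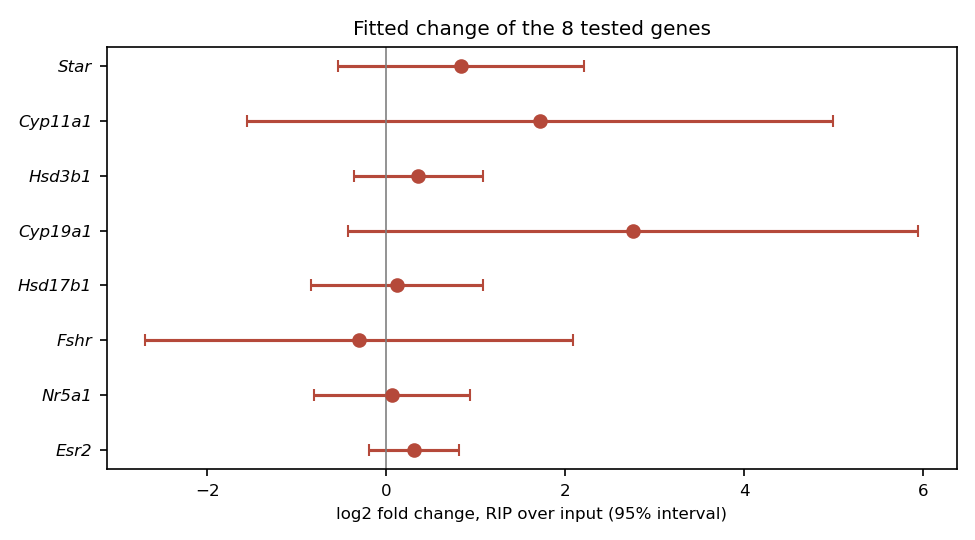
Fitted log2 fold change of RIP over input (x axis) for the 8 tested genes, with 95% intervals from edgeR's quasi-likelihood fit. Every interval includes 0, and those of Cyp11a1, Cyp19a1 and Fshr are the widest.

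Fshr and Esr2 also share a sequence feature. Promoter windows of 300 bases, credited to RefSeq with build GRCm38.p6, were found for 6 of the 10 genes, 9 windows in all because Cyp11a1 and Cyp19a1 have several starts. The E-box CACGTG, a palindrome that reads the same on both strands and is bound by factors such as USF, was in 2 of the 9 windows, those of Fshr and Esr2, and in 7.15% of all 32851 windows. Its first base lay 61 bases before the start of Fshr and 72 bases before that of Esr2. The stretches of 30 bases around it are shown because they are the matches to the E-box among the 9 windows, with the E-box in capitals. Both lie on the minus strand, at chr17:89200719-89200748 for Fshr and chr12:76177314-76177343 for Esr2.
Fshr: cctttagtgggtCACGTGactttgctgtcc
Esr2: ccggtttgtggtCACGTGggcttctcagct
The motif AAGGTCA, which NR5A1 is known to bind, was searched on both strands in this spelling only. It was in 0 of the 9 windows, against 4.72% of all windows, and 0 of 9 is not set apart from so low a share. Star, Cyp17a1, Hsd17b1 and Nr5a1 had no window to search. The GATA motif AGATAA was in 1 of the 9, that of Hsd3b1, against 11.2%. These matches describe the letters of the windows, and the data here hold no measure of binding.

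Nr5a1 and Hsd17b1 varied together across libraries in a way that did not follow the RIP and input groups. In RIP as in input, Nr5a1 and Hsd17b1 were higher in libraries 1 and 2 than in libraries 3 and 4, with Pearson's r of log2 CPM of 0.98 between Nr5a1 and Hsd17b1 and 0.79 between Nr5a1 and Fshr over 8 libraries. Hsd3b1 ran the other way in both groups, with r of -0.70 to Nr5a1 and -0.68 to Hsd17b1. Cyp11a1 and Cyp19a1, both with RIP 2 to 4 above every input library, had r of 0.80. These correlations are a description over 8 libraries that also differ in depth. The summed level of 10 granulosa cell markers, none of them a member, was 2690, 2350, 1712 and 1796 CPM in RIP 1 to 4, against 2367, 3034, 1308 and 1558 CPM in input 1 to 4. Input 2 was the highest and input 3 the lowest for this sum, as for Nr5a1, Hsd17b1 and Fshr. Of the 10 markers, Foxl2, Amh, Inha and Inhbb each had this order. Amhr2 and Gatm shared only the low of input 3, and Fst only the high of input 2. Wnt4 shared neither, and Kitl and Inhba were highest in input 3 (108 and 4.29 CPM). Part of the order of the sum was shared by markers of other cells. The oocyte and theca marker sums were also highest in input 2 (2125 and 563 CPM), but lowest in RIP 1 and RIP 3 (1355 and 392 CPM). The stroma marker sum was also lowest in input 3 (4273 CPM), but highest in RIP 1 (8073 CPM). Relative to each 1000 CPM of granulosa markers, Nr5a1 was at 65.7 to 76.9 in RIP, and at 76.7, 82.0, 30.4 and 68.5 in input 1 to 4. Input 3 thus remained low for Nr5a1 after this scaling, and the part of cell composition in these values was not tested.

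**Figure D3:**
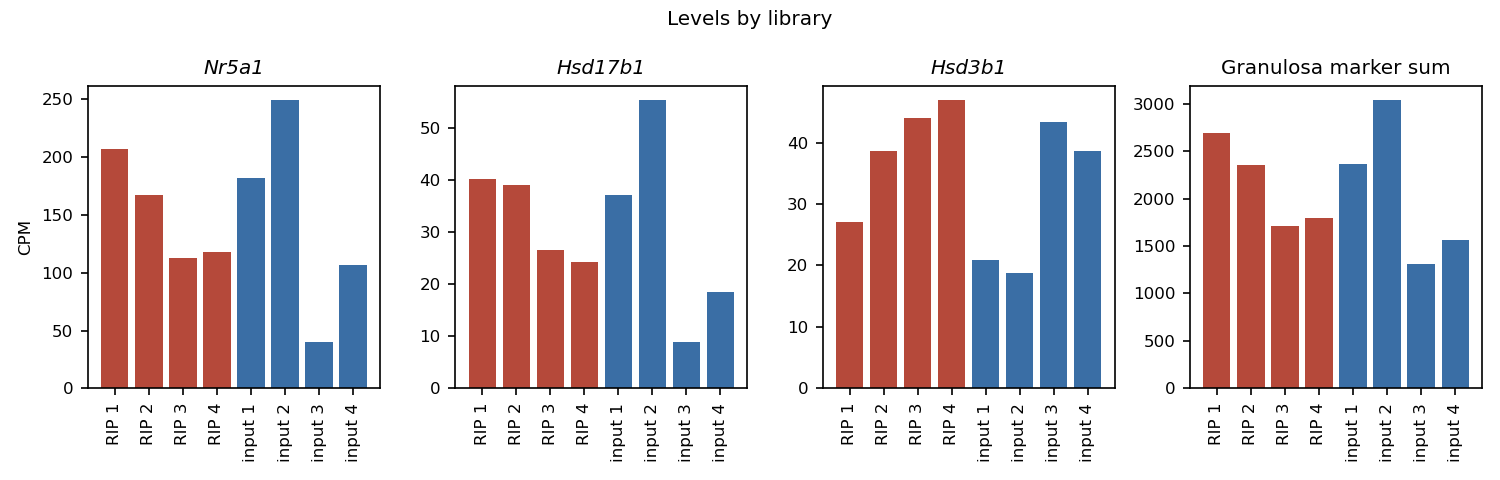
Levels (CPM) of Nr5a1, Hsd17b1 and Hsd3b1 and the summed level of 10 granulosa cell markers in each RIP and input library. Nr5a1, Hsd17b1 and the marker sum are highest in input 2 and lowest in input 3, while Hsd3b1 is lowest in input 1 and input 2.

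The members with few reads were at 0 mostly, but not only, where fewer genes were detected. The number of the 10 genes at 0 counts was 3 in RIP 1, 2 in RIP 2, 0 in RIP 3 and 0 in RIP 4, against 2 in input 1, 4 in input 2, 0 in input 3 and 1 in input 4. The libraries with the fewest genes detected were input 2 (14193), input 1 (14484) and RIP 1 (14908). RIP 2 did not follow this, with Cyp17a1 and Lhcgr at 0 though 16235 genes were detected, more than the 15763 of input 3. Library numbers 1 and 2 and numbers 3 and 4 were therefore also compared apart. This grouping was taken from the data and not from the labels, and it follows where these same genes were at 0, so the counts below only describe them and test nothing. Within libraries 3 and 4 both RIP libraries lay above both input libraries for 9 of the 10 genes, all but Esr2, while this held for 22.9% of all genes tested there. Both lay below for 0 of the 10, against 20.7% of all genes, and input 3 is the library with the lowest granulosa and stroma marker sums. Cyp17a1 and Lhcgr, which were below the filter over all 8 libraries, entered this set through their counts in RIP 3 and RIP 4. Cyp19a1 also rested on these libraries, with 33 and 73 counts in RIP 3 and 4, against 1 and 10 in input 3 and 4. Some of the orders hung on small margins. For Hsd3b1, RIP 3 was at 44.0 CPM, against 43.4 CPM in input 3. For Fshr, RIP 3 was at 1.17 CPM, against 1.02 CPM in input 4. For Nr5a1, RIP 3 was at 113 CPM, against 107 CPM in input 4. Within libraries 1 and 2 only 6 of the 10 genes were tested, and Cyp17a1 and Lhcgr were at 0 counts throughout. Both RIP libraries lay above both input libraries for 2 of these 6, Hsd3b1 and Esr2, against 20.5% of all genes tested there. Both lay below for 1, Fshr, against 18.4%. In neither set did a member pass edgeR's test, where 0.0389% of all genes passed in libraries 3 and 4 and 0.19% in libraries 1 and 2. Within libraries 3 and 4 the log2 fold changes were 3.62 ± 1.76 for Cyp19a1, 1.80 ± 1.63 for Cyp11a1, 1.19 ± 0.77 for Star, 0.89 ± 0.43 for Hsd17b1 and 0.65 ± 0.41 for Nr5a1 (SE, n = 2 each). Within libraries 1 and 2 they were 0.57 ± 1.03 for Star, -0.23 ± 0.41 for Hsd17b1 and -0.21 ± 0.29 for Nr5a1. Whether the RIP effect differs between these sets was not tested.

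Other genes of the pathway were read from lists of genes, and none passed edgeR's test over all genes in any of 6 lists. Among 13 tested genes of steroid synthesis and modification, 4 had a log2 fold change above 0 and 9 below, with a median of -0.15. Akr1c14, a hydroxysteroid dehydrogenase gene, was at 52.3, 41.4, 58.3 and 64.7 CPM in RIP 1 to 4, against 84.1, 78.1, 120 and 66.6 CPM in input 1 to 4. All its RIP libraries lay below all input libraries (log2 -0.69 ± 0.26, edgeR adjusted p = 0.622), and the mitochondrial dehydrogenase gene Hsd17b10 (-0.66 ± 0.28) had the next lowest p of the list, followed by Hsd17b12 (-0.65 ± 0.34). At an unadjusted p under 0.05 this list had 2 lower genes of 13 and 0 higher, beside 7.43% of all genes in either direction. Among 5 genes of electron transfer to the mitochondrial and microsomal enzymes the median was 0.01, with 0.53 ± 0.29 for the reductase gene Por, 1.24 ± 0.82 for Fdx1l and -0.22 ± 0.23 for Cyb5b, and 0 at an unadjusted p under 0.05. Among 19 genes of cholesterol supply the median was -0.01 and 0 were at an unadjusted p under 0.05. The lowest p there were those of Acbd3 (-0.69 ± 0.33), Lrp8 (1.25 ± 0.97) and the cholesterol transporter gene Npc1 (0.33 ± 0.26).

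Among 12 other hormone receptor genes the median was 0.00, and at an unadjusted p under 0.05 there were 3 lower genes and 0 higher, beside 7.43% of all genes in either direction. Pgrmc1, a membrane-associated progesterone receptor component, was at 70.1, 70.4, 60.1 and 84.4 CPM in RIP 1 to 4, against 124, 106, 159 and 90.6 CPM in input 1 to 4. Its groups did not overlap (log2 -0.75 ± 0.25, edgeR adjusted p = 0.622), and its relative Pgrmc2 was at -0.80 ± 0.29 and the glucocorticoid receptor gene Nr3c1 at -0.81 ± 0.32. The estrogen receptor alpha gene Esr1, the partner of Esr2, was at 0.14 ± 0.31. Among 18 genes of cAMP signalling below the gonadotropin receptors the median was 0.01, and at an unadjusted p under 0.05 there were 2 higher genes and 0 lower, beside the same 7.43%. Rapgef3, which encodes the cAMP-activated exchange factor EPAC1, was at 30.2, 7.04, 13.7 and 7.23 CPM in RIP 1 to 4, against 4.71, 3.48, 2.66 and 1.53 CPM in input 1 to 4. All its RIP libraries lay above all input libraries, with RIP 1 highest (log2 2.24 ± 0.60, edgeR adjusted p = 0.466), and DESeq2 called it with an adjusted p of 0.0475. The adenylate cyclase gene Adcy3 was at 0.79 ± 0.31, and the receptor kinase gene Adrbk1 at 0.63 ± 0.30. Among 17 transcription factor genes the median was 0.05, and at an unadjusted p under 0.05 there was 1 lower gene and 0 higher, beside the same 7.43%. The gene with the lowest p, Nr2f2, was at -0.69 ± 0.27, followed by Srebf2 (0.47 ± 0.33) and Cebpb (0.48 ± 0.37). Nr5a2, the close relative of Nr5a1, was at -0.09 ± 0.28.

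**Figure D4:**
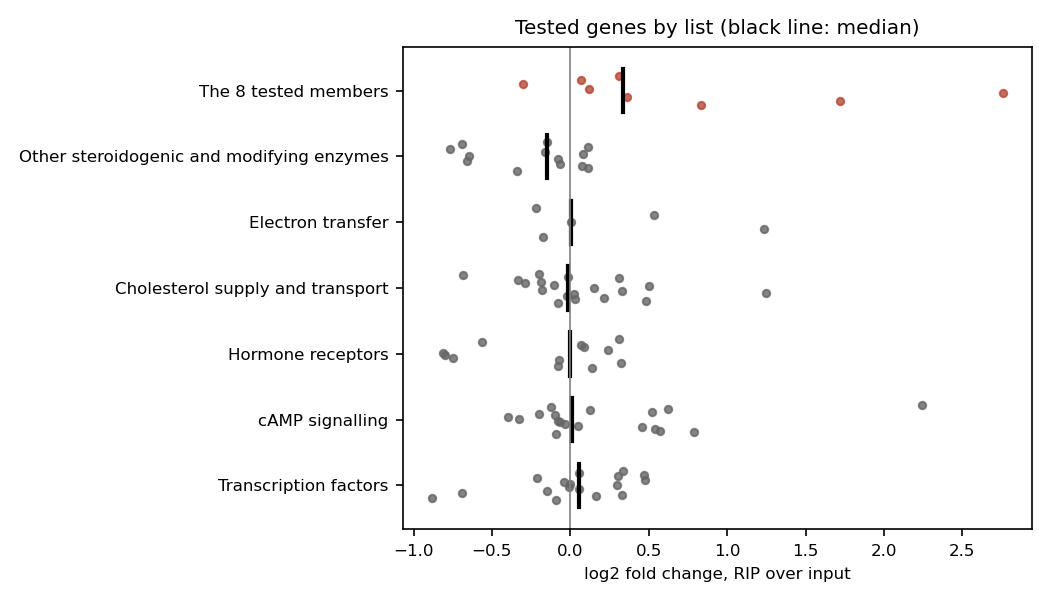
Log2 fold change of RIP over input (x axis) for the 8 tested members and for the tested genes of 6 pathway lists, 1 point per gene, with the median as a black line. The medians of the 6 lists lie between -0.15 and 0.05, and Cyp19a1, at 2.76, is the rightmost point.

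Genes of similar pattern were sought among the genes of at least median expression, by Pearson's r of log2 CPM over 8 libraries. The nearest to Nr5a1 were Ccnd3 (0.99) and Mogs (0.99), and those nearest to Hsd17b1 were Ndst2 (0.99) and Sun2 (0.99). For Hsd3b1 they were Safb (0.98) and Usp24 (0.97), and for Esr2 they were Gtf3c1 (0.98) and Clk3 (0.96). The members with fewer counts had lower maxima, with Bcl2l13 (0.94) and Gramd1b (0.92) for Star, Foxo1 (0.94) and Plekhh1 (0.94) for Cyp19a1, Tmem8b (0.92) and Dda1 (0.92) for Fshr, and Etv3 (0.91) and Oma1 (0.90) for Cyp11a1. Each was among the 2 highest of 7333 or 7334 candidates over only 8 libraries.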

How the data were processed

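Per the labels' protocols, RIP was done with a Magna RIP kit, and a SMARTer stranded kit for low input of total RNA was used for the libraries. The genome build is mm10 (per the submitters' processing notes). Aligner, counter, gene annotation and strand setting were not given in the sources used here. The authors deposited estimated counts (expected counts) per gene, of which at most 1.85% per library were not whole (tolerance 1e-09). They were rounded to whole numbers. Library totals and CPM were computed from them.

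RIP was compared with input, 4 libraries each, in R 4.3.3 with edgeR 4.0.16 (TMM, filterByExpr with a minimum count of 10 and minimum total of 15, robust quasi-likelihood fit, Benjamini-Hochberg adjustment, threshold 0.05). The SE is the size of the log2 fold change over the square root of F, and 95% intervals use it with the fit's degrees of freedom. Log2 CPM for correlations used a prior count of 2. The test was tested on simulated data, with changes placed only in genes of at least median level. It recovered 16 of 50 changes of 2-fold, 45 of 50 of 4-fold, 49 of 50 of 8-fold and 50 of 50 of 16-fold. Star, Cyp11a1, Cyp19a1 and Fshr lie below that level, so these figures do not hold for them. For the other tested members the figures may be too high. All the changes were placed in the same simulated data, and libraries were drawn without the patterns shared among libraries here. Alternatives were other scalings, DESeq2 1.42.0, limma 3.58.1 voom, other filters and blocks, a threshold of 0.01, and leaving out libraries. Gene symbols, spans and promoter windows are from RefSeq tables of GRCm38.p6, and levels were not compared between genes because transcript lengths were not used. The members, the lists and the rule for named genes (every member, every list gene past the threshold or otherwise the 3 of lowest p, and the 2 genes nearest each member) were chosen with earlier results of these data known. Foxl2, Gdf9, Ptch1, Insl3, Esr1 and Nr5a2 were named as markers or relatives of members.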

Additional observations from a re-analysis of the deposited data

Results flagged for a closer look

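Cyp17a1 in input 3, at 0.545 CPM (16 counts), stood apart from the other input libraries, which were all at 0 counts. It was the only such library among 20 groups of 4 examined. With 3 libraries at 0, any count in the fourth would stand apart in this way, so the usual rate of about 1 in 20 by chance does not apply to it.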

How the results depend on the processing

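No member passed in any setting that tested it, and Star, Cyp11a1, Cyp19a1, Hsd3b1 and Esr2 kept their direction in each. Star ranged from 0.48 to 1.51, Hsd3b1 from 0.15 to 0.72 and Esr2 from 0.18 to 0.44. The median of the tested members was 0.09 to 0.60 when libraries were left out, and 1.35 within libraries 3 and 4, where all 10 were tested. Fshr changed sign with limma voom (0.17), the replicate block (0.19), libraries 1 and 2 or 3 and 4 as a block (0.10) and within libraries 3 and 4 (1.50), and ranged from -0.88 to 0.73 when libraries were left out (0.50 without input 2, 0.73 without both libraries 2). Hsd17b1 and Nr5a1 changed sign within libraries 1 and 2 (-0.23 and -0.21). When libraries were left out Hsd17b1 ranged from -0.18 to 0.60 (-0.05 without input 4, -0.10 without both libraries 3) and Nr5a1 from -0.24 to 0.47 (-0.12 without both libraries 3). Over all genes edgeR called 6, against 56 by DESeq2, 20 by limma voom, 55 with the replicate block, 55 with the grouped numbers as a block, 27 within libraries 1 and 2, and 1 to 17 when libraries were left out (15 without input 3, 17 without RIP 1). Of the pathway lists DESeq2 called 1 gene, Rapgef3, and every other setting 0. The cause of these shifts was not tested. Deviations from group means correlated between same-numbered RIP and input libraries with r of 0.09 to 0.18, below 0.1 for number 2. Pairs of unlike number had r of -0.25 to 0.27, and 4 of 8 libraries correlated best with their own number. These values do not settle whether the numbers mark pairs. The labels do not say so, and the main fit has no block. The replicate block changed no call among the members. Cyp17a1, Lhcgr, Cyp11a1, Cyp19a1 and Fshr had at most 73 counts in any library, which limits what can be read from them. Their zeros did not simply follow depth. RIP 2, with the highest total of the RIP libraries (21269891), had 0 counts of Cyp17a1 and Lhcgr.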
